A study of Homo sapiens with 18 samples.

Results

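The nuclear-encoded respiratory chain genes were chosen by symbol, as NDUFA, NDUFB, NDUFC, NDUFS and NDUFV genes with a number, SDHA to SDHD, UQCR genes, COX4 to COX8 genes and ATP5 genes, with a value of 10 or more in at least 3 libraries of an RNA-seq table. Of the 28395 genes listed, 93 matched by symbol, and 86 of these passed the value rule, among 15475 genes that passed it in all. By symbol, 41 of the 86 belonged to complex I, 4 to complex II, 10 to complex III, 13 to complex IV and 18 to complex V. Subunit genes made up 74 of the 86. Another 4 encode rarer isoforms or relatives of subunits (NDUFA4L2, COX6B2, COX7A2L and COX7B2). The remaining 8 carry a matching symbol without encoding a subunit of that name, namely the antisense transcripts NDUFA6-AS1, NDUFB2-AS1 and NDUFV2-AS1, the pseudogenes UQCRBP1 and ATP5EP2, the intronless copy UQCRHL, and ATP5S and ATP5SL, whose current symbols are DMAC2L and DMAC2. The 7 matching genes below the value rule were COX4I2, COX6A2, COX7A1, COX8C, ATP5L2 and the readthrough transcripts NDUFC2-KCTD14 and ATP5J2-PTCD1.

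The respiratory chain sits in the inner mitochondrial membrane. Complex I takes electrons from NADH and complex II from succinate, complex III passes them to cytochrome c, complex IV hands them to oxygen, and complex V, the ATP synthase, uses the resulting proton gradient to make ATP. Most subunits are encoded in the nucleus and imported, while the hydrophobic cores of complexes I, III, IV and V are encoded by mitochondrial DNA, so both genomes contribute to the same enzymes. Genes of the nuclear set are known targets of the transcription factors NRF1 and GABPA.

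The lines were made from K562, a human erythroleukemia cell line that lacks endogenous BASP1 protein, a transcriptional corepressor. V-K562 cells were stably transfected with the empty vector, B-K562 cells with wtBASP1, and G-K562 cells with BASP1-G2A, whose N-terminus cannot be myristoylated. All 3 lines were selected pools, so differences between pools that do not come from the BASP1 protein cannot be told apart from its effect. Each line gave 3 RNA-seq and 3 ATAC-seq libraries, the latter measuring how open chromatin is. The comparisons ask how the respiratory chain transcripts differ in cells with either form of BASP1.

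RNA-seq values were normalised read counts, and their totals ran from 32074895 to 33229588 per library. BASP1 was at 5 to 7 in V-K562 libraries, 6189 to 6849 in B-K562 libraries and 8124 to 12538 in G-K562 libraries. K562 markers were detected in every library. In G-K562 against V-K562 cells GATA1, TAL1, KLF1, HBE1, HBG1, HBG2 and HBZ were lower, with log2 fold changes of -0.56, -0.79, -1.48, -1.03, -2.85, -2.81 and -2.54, and TFRC was higher at 0.56. In B-K562 cells these markers were higher, at 0.22, 0.25, 0.88, 0.55, 0.69, 0.68, 2.22 and 0.90 in the same order. The part of this difference in the respiratory chain values was not tested. CD3E, CD14 and ALB, markers of other cell types, lay between 3 and 29 in every library, while EPCAM lay between 1129 and 1731 and COL1A1 between 589 and 1297. In bulk RNA, fewer cells of one state and less RNA per cell cannot be told apart. Libraries V-K562 replicate 1, B-K562 replicate 1 and G-K562 replicate 2 leaned to short transcripts, with rank correlations of their deviation from their own line's mean with exon length of -0.40, -0.31 and -0.46 over 9715 or 9844 genes. This touches the respiratory chain, whose subunit genes had a median exon length of 1028 bases against 3438 bases for all genes tested.

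The sequences upstream of starts are shown for COX5B and COX6A1, subunit genes whose windows hold NRF1 and ETS letters, for ATP5H, a subunit gene that rose from B-K562 to G-K562 cells, and for NDUFA4L2 and COX7B2, which had the lowest log2 fold changes of the set in B-K562 and G-K562 cells. Each gives the 200 bases before a RefSeq start in GRCh38.p14, 5′ to 3′ on the gene's strand, and capitals mark matches to the searched motifs.
COX5B: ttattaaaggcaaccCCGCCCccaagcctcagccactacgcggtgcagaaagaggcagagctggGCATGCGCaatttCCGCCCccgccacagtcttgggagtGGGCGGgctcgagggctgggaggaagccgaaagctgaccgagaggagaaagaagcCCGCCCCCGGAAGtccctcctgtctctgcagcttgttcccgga
COX6A1: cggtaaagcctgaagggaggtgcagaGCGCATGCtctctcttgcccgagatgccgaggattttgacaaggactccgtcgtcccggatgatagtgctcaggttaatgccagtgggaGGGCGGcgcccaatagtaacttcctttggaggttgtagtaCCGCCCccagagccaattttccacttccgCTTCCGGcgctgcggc
ATP5H: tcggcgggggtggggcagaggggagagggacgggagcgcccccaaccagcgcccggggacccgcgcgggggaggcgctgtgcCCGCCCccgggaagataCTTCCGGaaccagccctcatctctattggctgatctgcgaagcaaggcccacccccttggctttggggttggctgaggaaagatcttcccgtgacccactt
NDUFA4L2: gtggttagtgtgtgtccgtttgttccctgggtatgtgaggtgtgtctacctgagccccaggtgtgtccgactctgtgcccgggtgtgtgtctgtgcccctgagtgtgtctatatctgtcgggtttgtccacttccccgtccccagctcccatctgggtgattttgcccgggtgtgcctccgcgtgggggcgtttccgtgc
COX7B2: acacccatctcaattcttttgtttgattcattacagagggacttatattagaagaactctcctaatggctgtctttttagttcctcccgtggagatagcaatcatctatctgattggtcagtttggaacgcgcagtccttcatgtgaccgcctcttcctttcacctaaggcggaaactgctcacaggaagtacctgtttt
These windows lie at chr2:97645862-97646061 (plus strand) for COX5B, chr12:120437913-120438112 (plus strand) for COX6A1, chr17:75046970-75047169 (minus strand) for ATP5H, chr12:57240763-57240962 (minus strand) for NDUFA4L2 and chr4:46909246-46909445 (minus strand) for COX7B2. The letters searched on both strands were GCATGCGC (NRF1 core), CCGGAAG (ETS core, the kind GABPA binds), AAGATGGC (YY1 core) and GGGCGG (SP1 core), none of which contains another, though matches may overlap in part. Of the 86 genes, 70 had a row in the RefSeq promoter table, which spans 250 bases before to 50 bases after each start. The NRF1 letters were in the promoters of 14 of 62 subunit genes (22.6%), against 6.19% of the 11872 genes of the RNA-seq tables that passed the value rule and had a row, and 3.68% of all 27305 genes of the promoter table. The YY1 letters were in 19.4% of subunit gene promoters against 6.09% of passing genes and 3.52% of all genes of the table. The ETS letters were in 32.3% against 21.2% and 12.2%. The SP1 letters were in 62.9% of subunit gene promoters, below the 73.7% of passing genes and above the 48.3% of all genes of the table. In G-K562 against V-K562 cells the median log2 fold change was -0.56 for the 14 subunit genes with the NRF1 letters and -0.45 for the 48 without. Medians with and without the letters were -0.52 and -0.43 for ETS, -0.51 and -0.45 for YY1, and -0.48 and -0.41 for SP1. The median was thus lower with the letters of each motif than without. Some genes hold letters of several motifs, so these groups overlap, and a part of any motif in the values was not tested. In B-K562 cells the medians with and without the letters were 0.24 and 0.21 for NRF1 and 0.24 and 0.21 for ETS. For YY1 they were 0.34 and 0.21, and for SP1 0.20 and 0.23.

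G-K562 cells held less respiratory chain transcript than V-K562 cells in each of the 5 complexes. With the threshold set at an adjusted p-value of 0.05 (limma-trend, Benjamini-Hochberg over all genes tested), 66 of the 86 genes were lower and 4 higher, while 33.3% of all 15271 genes tested were lower and 33.5% higher. Among tested genes whose mean value was 1000 or more, as for most subunit genes, 33.4% were lower and 36.0% higher when the mean was taken over the V-K562 and G-K562 libraries, and 35.9% and 32.7% when it was taken over the V-K562 and B-K562 libraries. Among short genes at that level, under 1500 bases of exon, 45.7% were lower and 18.5% higher, against 76.7% and 4.65% of the 86 genes. The median log2 fold change of the 86 genes was -0.46, and that of all genes tested was 0.00271. A fall of at least 2-fold was called for 4 genes (10.3% of all genes tested) and a rise of at least 2-fold for 1 (8.81%), so that the fall was broad and mostly under 2-fold. The 4 were SDHB, NDUFS5, COX6B2 and COX7B2, and the 4 higher genes were NDUFA4L2, NDUFB1, NDUFB2-AS1 and ATP5S.

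In B-K562 cells more of these transcripts rose above V-K562 levels than fell below them. At the same threshold 47 of the 86 genes (54.7%) were higher and 14 (16.3%) lower, with a median log2 fold change of 0.19. Of all 14958 genes tested 38.6% were higher and 37.2% lower. Highly expressed genes as a whole leaned upward in this comparison, with 52.5% of those whose mean reached 1000 higher and 30.1% lower, so the share of respiratory chain genes that were higher was near that of highly expressed genes. Only 1 gene rose at least 2-fold (6.46% of all genes tested) and 2 fell at least 2-fold (14.1%), the first being NDUFB2-AS1 and the others NDUFA4L2 and COX6B2. Quantile normalization, which lowered the median of the 86 genes to 0.09, left 33 higher and 18 lower. Of the genes named below, NDUFS1, NDUFV1, NDUFA4, NDUFB11, COX5A, COX6A1, SDHD, ATP5C1 and ATP5I were no longer called higher under it. ATP5B and COX7B2 were called higher, and NDUFS7, COX8A and COX7A2 lower, under quantile normalization but not in the main fit.

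Set directly against B-K562 cells in a fit of all 9 libraries, G-K562 cells had lower values for 71 of the 86 genes and higher values for 7. The shares over all 15521 genes tested were 40.5% lower and 38.1% higher, and among genes whose mean reached 1000 they were 50.8% lower and 33.0% higher. Among short genes with a mean of 1000 or more over the V-K562 and B-K562 libraries, 61.6% were lower and 25.4% higher. The shares of the 86 genes were 82.6% and 8.14%. The median log2 difference of the 86 genes was -0.61. At least a 2-fold difference was called for 14 genes lower in G-K562 cells (12.5% of all genes tested) and 1 gene higher (17.4%). The comparisons with V-K562 cells share the V-K562 libraries and are not independent of each other.

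**Figure D1:**
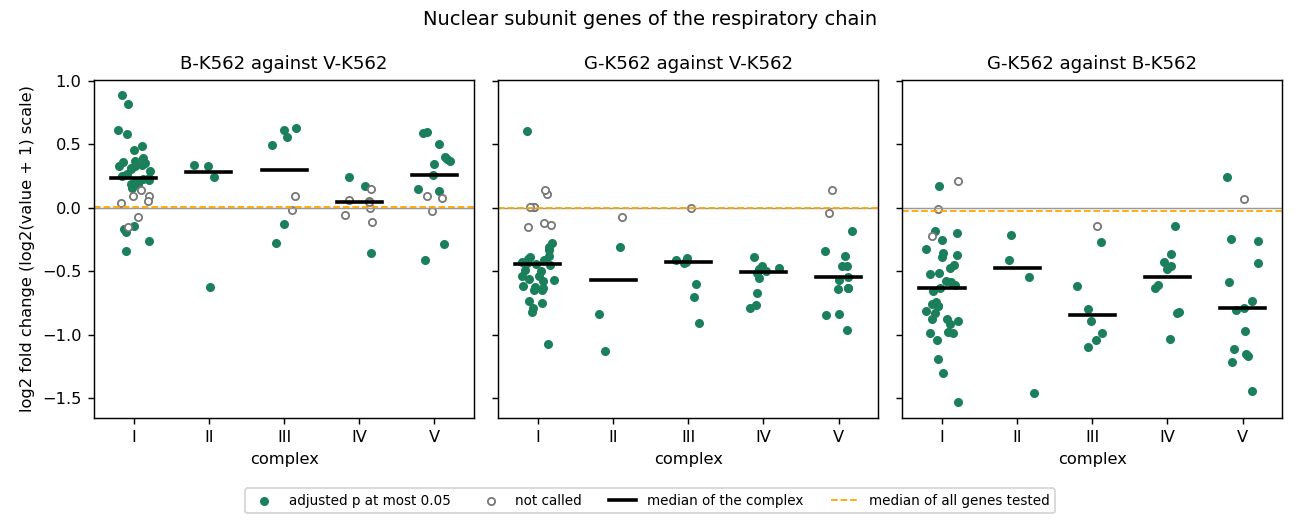
Log2 fold change on the log2(value + 1) scale (y axis) of each of the 74 subunit genes by complex (x axis), in 3 comparisons; filled points passed an adjusted p-value of 0.05 (limma-trend), black bars are medians of a complex and the dashed line is the median of all genes tested. In G-K562 against V-K562 cells the medians run from -0.43 for complex III to -0.57 for complex II, and in B-K562 against V-K562 cells from 0.05 for complex IV to 0.30 for complex III.

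The short genes of the tables moved in the same direction as the subunit genes by a smaller amount in G-K562 cells. Among 622 genes with merged exons under 1500 bases and a mean of 1000 or more over the V-K562 and B-K562 libraries, the median log2 fold change was -0.14 in G-K562 and 0.17 in B-K562 against V-K562 cells, and -0.37 in G-K562 against B-K562 cells. The medians of the 74 subunit genes were -0.48, 0.21 and -0.63. Their summed values made up 1.13% to 1.28% of a V-K562 library, 1.25% to 1.31% of a B-K562 library and 0.815% to 0.911% of a G-K562 library, so the G-K562 libraries did not overlap the others. Within G-K562 cells, replicate 2, which leaned to short transcripts, stood nearest to V-K562 cells, with a median deviation of the subunit genes from the V-K562 mean of -0.36 against -0.54 and -0.53 in replicates 1 and 3. Without V-K562 replicate 1 and G-K562 replicate 2, an alternative chosen after the data were seen, 67 genes were lower and 7 higher in G-K562 cells and the median was -0.48.

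**Figure D2:**
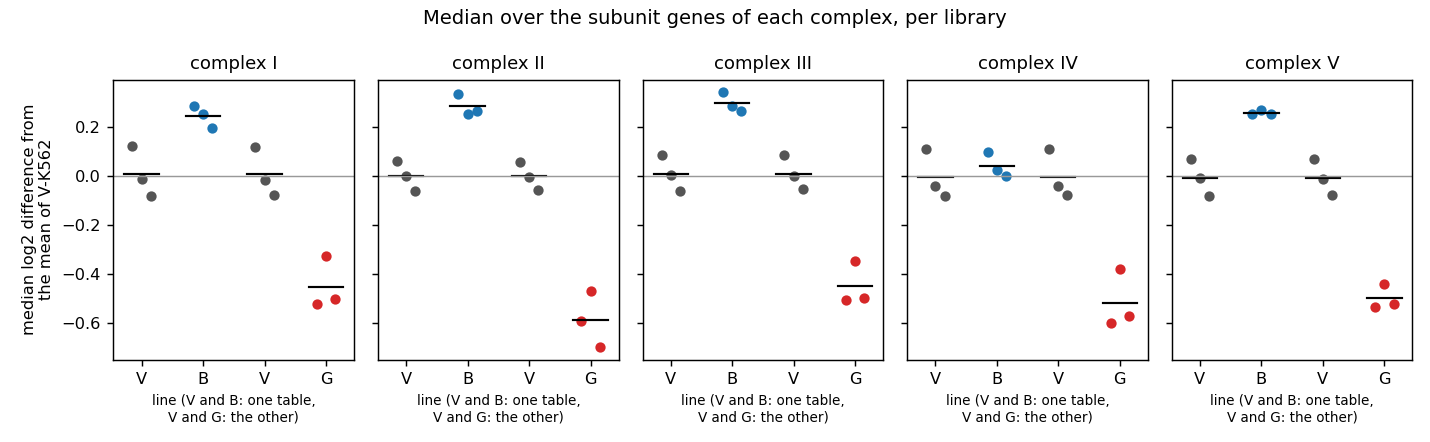
Median log2 difference from the mean of V-K562 cells over the subunit genes of each complex (y axis), with 1 point per library and black bars for the mean of 3 libraries; the V-K562 libraries appear once in each table. Every G-K562 library lies below every V-K562 library in all 5 complexes, and the B-K562 libraries of complex IV overlap those of V-K562 cells.

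Complex I, the NADH dehydrogenase, had 37 subunit genes tested. They were grouped by symbol and so include NDUFA4, which is now placed in complex IV. Against V-K562 cells, 28 were lower and 1 was higher in G-K562 cells (median -0.44 on the log2 scale), and in B-K562 cells 25 were higher and 5 lower, with a median of 0.23. In G-K562 cells these were 75.7% and 2.70%, against 33.3% and 33.5% of all genes tested. In B-K562 cells they were 67.6% and 13.5%, against 52.5% and 30.1% of genes whose mean reached 1000. All 7 nuclear core subunit genes, which carry the flavin and the iron-sulfur clusters, were lower in G-K562 cells, within a narrow range of log2 fold changes from -0.57 to -0.40. The 29 accessory subunit genes spread from -1.07 to 0.61, with 20 lower and 1 higher.

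NDUFV1, the core subunit that binds NADH and the flavin, had values of 9459, 8812 and 8480 in V-K562 libraries and 9998, 10328 and 10202 in B-K562 libraries of the same table. In the other table it was at 9604, 8947 and 8653 in V-K562 and at 5923, 6475 and 5964 in G-K562 libraries. The 3 lines did not overlap, with G-K562 lowest and B-K562 highest. Its log2 fold change was -0.57 in G-K562 cells (standard error, SE, 0.06, adjusted p = 7.7e-06, limma-trend) and 0.19 in B-K562 cells (SE 0.05, adjusted p = 0.0029). The B-K562 call was lost with quantile normalization (0.09, adjusted p = 0.078, limma-trend). NDUFS1, the largest iron-sulfur subunit, fell to 67.2% of its V-K562 level in G-K562 cells and was at 115% in B-K562 cells. NDUFS7, next to the quinone site, was at 68.8% in G-K562 cells, and in B-K562 cells at 95.2%, which was not called (adjusted p = 0.16, limma-trend). It was called lower in B-K562 cells with quantile normalization (-0.22, adjusted p = 6.4e-04, limma-trend) and with equal totals (-0.10, adjusted p = 0.0495).

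NDUFS5, an accessory subunit on the side of the intermembrane space, had the largest fall of complex I in G-K562 cells. In that table it was at 5965, 5283 and 4613 in V-K562 libraries and at 2333, 2967 and 2246 in G-K562 libraries. Its B-K562 values were 7209, 7050 and 7021, against 5875, 5204 and 4521 in V-K562 libraries of that table, so the lines were fully separated in the opposite order of G-K562 and B-K562. The direct log2 difference of G-K562 and B-K562 cells was -1.53 (SE 0.10, adjusted p = 3.0e-09, limma-trend).

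The accessory genes NDUFB2 and NDUFA9 had the largest rises of complex I subunits in B-K562 cells. NDUFB2 was at 1415, 1299 and 1197 in V-K562 and at 2485, 2421 and 2326 in B-K562 libraries, with no overlap and a log2 fold change of 0.89 (SE 0.06, adjusted p = 1.9e-08, limma-trend). NDUFA9, which sits where the membrane and matrix arms meet, rose to 176% of the V-K562 level. Both lay below V-K562 in G-K562 cells, NDUFB2 at 75.4% and NDUFA9 at 1205, 1299 and 1158 against 1606, 1651 and 1498. NDUFB2-AS1, which overlaps the start of NDUFB2 on the opposite strand (chr7:140695336-140697077, GRCh38), went from 26, 24 and 22 in V-K562 libraries to 70, 89 and 85 in B-K562 libraries, and G-K562 libraries had 56, 53 and 47. It was the gene that rose at least 2-fold in each BASP1 line, and since whether counting used strand is not given in the sources used here, its reads and those of NDUFB2 cannot be told apart. NDUFV2-AS1 was low, at 11 to 31 in every library, and G-K562 cells had more of it than B-K562 cells (log2 difference 0.74, adjusted p = 0.023, limma-trend). This call was lost without B-K562 replicate 3 (0.47, adjusted p = 0.12), without G-K562 replicate 1 (adjusted p = 0.072) and with quantile normalization (0.37, adjusted p = 0.21).

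In G-K562 cells NDUFB11, a membrane arm subunit, was at 56.7% of V-K562 and NDUFB9, of the same arm, at 59.6%. NDUFB5 was lower in both lines, at 69.0% in G-K562 and 78.8% in B-K562 cells. NDUFB1, named after its values were seen, was the 1 subunit gene called higher in the G-K562 line, at 942, 1188 and 962 against 775, 671 and 585. Its log2 fold change of 0.61 (SE 0.11, adjusted p = 5.8e-04, limma-trend) stands beside a median of 0.55 for the 57 other tested genes within 5 Mb on chromosome 14. Over the 201 tested genes of chromosome 14 beyond 70 Mb the median was 0.62.

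Complex II, succinate dehydrogenase, is built from nuclear genes alone. Against V-K562 cells, its 4 subunit genes split in the B-K562 line, with 3 called higher and 1 lower. In the G-K562 line 3 were called lower and 1 was not called. By the direct fit of the 2 BASP1 lines, all 4 were called lower on the G-K562 side, with a median log2 difference of -0.48. SDHA, the flavoprotein that oxidizes succinate, was lower in both lines. Beside B-K562 it was at 8083, 7897 and 7509 in V-K562 and at 5155, 5062 and 5024 in B-K562 libraries, a log2 fold change of -0.62 (SE 0.05, adjusted p = 2.7e-08, limma-trend). In the other table it fell from 8207, 8018 and 7661 to 4475, 4589 and 4291, a log2 fold change of -0.84 (SE 0.05, adjusted p = 1.4e-07). No library of either BASP1 line reached a V-K562 library. SDHA has near-identical pseudogene copies elsewhere in the genome, and reads that matched more than 1 place were not counted, so its level is uncertain.

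SDHB, the iron-sulfur subunit, went opposite ways in the lines. It was at 5386, 5108 and 4891 in V-K562 and at 6439, 6537 and 6379 in B-K562 libraries, and in the other table at 5468, 5186 and 4991 in V-K562 and at 2341, 2607 and 2231 in G-K562 libraries. The lines did not overlap, and the G-K562 libraries kept 45.9% of the V-K562 mean, the largest fall of all subunit genes. Its log2 fold change was -1.13 in G-K562 cells (SE 0.07, adjusted p = 7.5e-08, limma-trend), and the direct difference of G-K562 and B-K562 cells was -1.46. SDHC, a membrane anchor, was at 126% of V-K562 in B-K562 cells and at 95.4% in G-K562 cells, where libraries overlapped and no change was called (adjusted p = 0.32). SDHD, the other anchor, was called higher at 118% in B-K562 (adjusted p = 0.020) and lower at 81.1% in G-K562 cells (adjusted p = 0.039), but its libraries overlapped those of V-K562 in both tables. The first call was lost without B-K562 replicate 1, V-K562 replicate 2 or V-K562 replicate 3 (adjusted p-values from 0.084 to 0.097), and without the last its log2 fold change went from 0.24 to 0.14. It was also lost in the joint fit, with no filter, with no trend and with quantile normalization. The second call was lost when V-K562 replicate 1, V-K562 replicate 2, G-K562 replicate 1 or G-K562 replicate 3 was left out, with adjusted p-values from 0.092 to 0.17. Per kilobase of exon, the V-K562 levels of SDHA, SDHB, SDHC and SDHD were 1822, 4448, 647.1 and 1978.

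**Figure D3:**
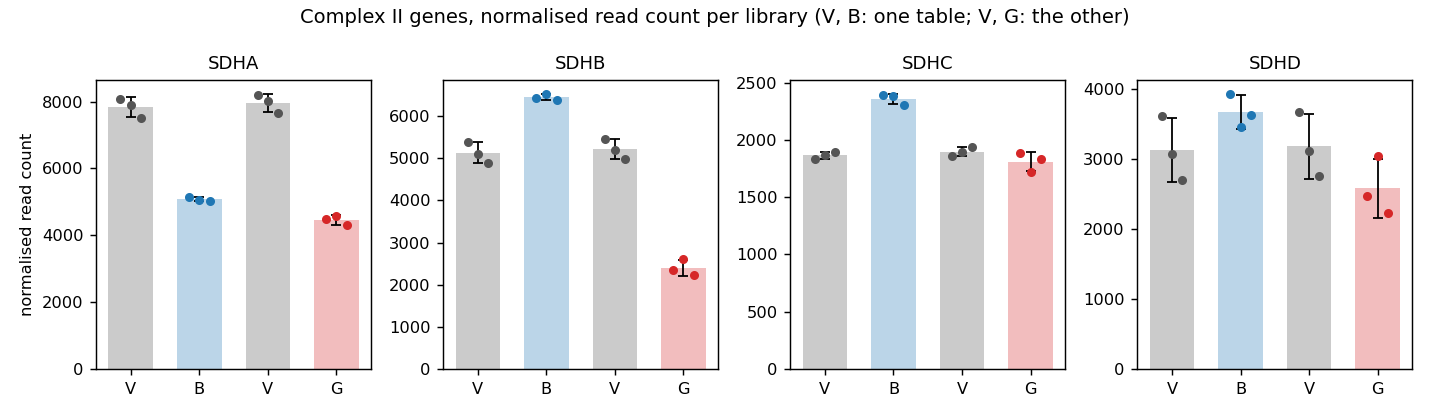
Normalised read count (y axis, linear from 0) of SDHA, SDHB, SDHC and SDHD by line (x axis, each named by the first letter of its name); points are libraries, bars means and error bars SD of 3 libraries, with V-K562 shown once for each table. SDHA is lower in both BASP1 lines, SDHB is higher in B-K562 and at 45.9% of V-K562 in G-K562 cells.

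Complex III, the cytochrome bc1 complex, had 8 subunit genes tested, of which 7 were lower in G-K562 cells and 4 were higher and 2 lower in B-K562 cells. UQCRH, the acidic hinge protein near cytochrome c1, had the largest fall in G-K562 cells, from 16969, 15357 and 15160 in V-K562 to 8077, 9172 and 8041. The libraries did not overlap, and its log2 fold change was -0.91 (SE 0.07, adjusted p = 4.5e-07, limma-trend). In B-K562 cells it was at 15993, 15138 and 15021 against 16713, 15125 and 14859, with overlapping libraries and no call. UQCRHL, the intronless copy, followed it in each line at 57.2% and 97.6% of V-K562, and since reads that matched more than 1 place were not counted, the levels of both are uncertain.

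UQCRFS1, the Rieske iron-sulfur protein that hands electrons to cytochrome c1, rose in B-K562 cells and was not called in G-K562 cells. It went from 2328, 2305 and 2208 in V-K562 to 3550, 3571 and 3366 in B-K562 libraries, a log2 fold change of 0.62 (SE 0.05, adjusted p = 5.2e-08, limma-trend). In the other table V-K562 libraries had 2363, 2340 and 2253 and G-K562 libraries 2224, 2533 and 2220, which overlapped. The G-K562 level was below that of B-K562 cells by a log2 difference of -0.61 (adjusted p = 1.7e-07). The core proteins UQCRC1 and UQCRC2, which do not carry electrons, were at 61.6% and 76.1% of V-K562 in G-K562 cells, and UQCRB, a small subunit, at 74.8%. UQCRC2 and UQCRB were the 2 lower genes in B-K562 cells, the former at 91.7% with a call lost when any library but V-K562 replicate 1 was left out (adjusted p-values from 0.052 to 0.11). UQCR10 and UQCRQ, small subunits, were at 154% and 141% in B-K562 cells and at 75.3% and 65.9% in G-K562 cells.

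Complex IV, cytochrome c oxidase, had 10 nuclear subunit genes tested. NDUFA4 is not among them, since it was counted with complex I. All 10 were lower in G-K562 cells, by -0.79 to -0.38 on the log2 scale, while in B-K562 cells 2 were higher, 1 was lower and 7 were not called. The lower one was COX7C, a small membrane subunit named, like COX6C, after its values were seen, at 78.2% in B-K562 and 71.1% in G-K562 cells. COX4I1, the largest nuclear subunit, had values of 13171, 11607 and 11721 in V-K562 and 12494, 12148 and 11809 in B-K562 libraries, which overlapped. In the G-K562 table it went from 13373, 11785 and 11959 to 8526, 9829 and 8242. Each G-K562 library lay below the V-K562 libraries, with a log2 fold change of -0.48 (SE 0.08, adjusted p = 1.6e-04, limma-trend). COX5A and COX5B, which with COX4I1 surround the catalytic core, were at 73.0% and 68.1% of V-K562. COX6A1 had the largest fall, from 3523, 2862 and 2744 to 1686, 1962 and 1623, and was at 118% in B-K562 cells with overlapping libraries, a call lost without B-K562 replicate 1, V-K562 replicate 2 or V-K562 replicate 3 (adjusted p-values from 0.053 to 0.078).
The small subunits ranged from 57.7% of V-K562 for COX6A1, 58.7% for COX6C and 63.2% for COX7B to 76.7% for COX6B1. COX8A and COX7A2 lay between them at 71.8% and 70.2%. NDUFA4, once placed in complex I and now named COXFA4 as a subunit of complex IV, was at 60.3% in G-K562 and 114% in B-K562 cells.

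Of the 4 isoform genes, 3 showed the largest changes of the set. NDUFA4L2, a relative of NDUFA4 known as a target of hypoxia-inducible factors, had values of 145, 112 and 141 in V-K562 and 15, 21 and 20 in B-K562 libraries. In the other table it was at 147, 114 and 143 in V-K562 and 251, 269 and 260 in G-K562 libraries. The lines did not overlap, B-K562 being lowest at 14.1% of V-K562 and G-K562 highest at 193%. On the log2 scale B-K562 cells differed from V-K562 by -2.77 (SE 0.19, adjusted p = 1.3e-08, limma-trend) and G-K562 cells by 0.95 (SE 0.12, adjusted p = 3.0e-05). The direct difference of 3.72 (SE 0.15, adjusted p = 3.2e-11) was the 1 at least 2-fold difference in which G-K562 cells were higher. EPAS1, which encodes a hypoxia-inducible factor, was at 892, 964 and 968 in B-K562 against 1802, 1735 and 2039 in V-K562 libraries, and at 2845, 2663 and 2840 in G-K562 against 1830, 1762 and 2081. HIF1A, which encodes another, had log2 fold changes of 0.13 and -0.45. A part of either factor in the NDUFA4L2 values was not tested.

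COX7B2, a testis isoform of COX7B, was at 115, 112 and 118 in V-K562 and at 123, 95 and 112 in B-K562 libraries, which overlapped. In the G-K562 table V-K562 libraries had 116, 114 and 120 and G-K562 libraries 2, 4 and 1. It passed the value rule of that table through the V-K562 libraries alone. The fitted log2 fold change of -5.24 (SE 0.33) depends on the pseudocount of 1, and lay between -5.59 and -4.07 over 16 alternatives. The 19 other tested genes within 5 Mb on chromosome 4 had a median log2 fold change of 4.5e-05.
COX6B2, a testis isoform of COX6B1, was low in both BASP1 lines. It had values of 73, 87 and 96 in V-K562 and 14, 17 and 13 in B-K562 libraries, and 74, 89 and 98 against 24, 25 and 24 in the G-K562 table. The libraries of each BASP1 line lay below all V-K562 libraries. The log2 fold changes were -2.46 in B-K562 (SE 0.20, adjusted p = 8.8e-08, limma-trend) and -1.79 in G-K562 cells (SE 0.18, adjusted p = 4.0e-06). COX7A2L, which helps complexes III and IV join into supercomplexes, was at 5996, 5593 and 5720 in V-K562 and at 3799, 3610 and 3629 in B-K562 libraries, and fell to 80.1% of V-K562 in G-K562 cells. Its direct difference of 0.33 (adjusted p = 2.1e-05) put G-K562 above B-K562 cells. COX6B1, COX7B and COX7A2, the widely expressed partners of these isoforms, were at 103%, 110% and 96.3% of V-K562 in B-K562 cells, where none was called. Without V-K562 replicate 1, COX6B1 and COX7B were called higher (adjusted p = 0.0055 and 0.0010, limma-trend). COX7B was also called higher with the replicate block (adjusted p = 0.011), and COX7A2 was called lower with quantile normalization (-0.20, adjusted p = 0.0074). COX4I2, COX6A2, COX7A1 and COX8C, isoforms of lung, muscle and testis, had values of 0 to 5 in every library.

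**Figure D4:**
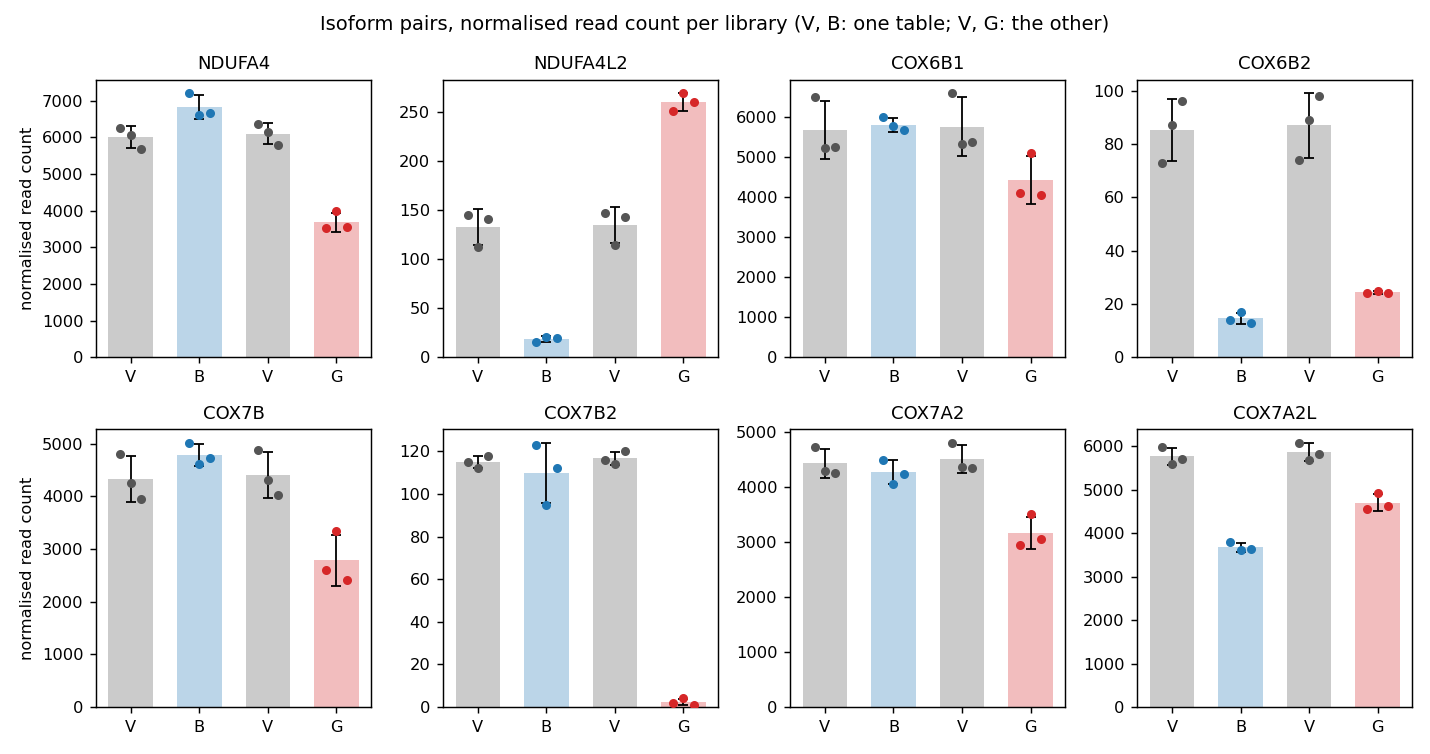
Normalised read count (y axis, linear from 0, scaled per gene) of 4 subunit genes and their isoforms or relatives by line (x axis, each named by the first letter of its name); points are libraries, bars means and error bars SD of 3 libraries, with V-K562 shown once for each table. NDUFA4L2 is at 14.1% of V-K562 in B-K562 and 193% in G-K562 cells, and COX7B2 is at 1 to 4 in G-K562 libraries.

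Complex V, the ATP synthase, had 15 subunit genes tested, of which 13 were lower in G-K562 cells and 10 were higher and 2 lower in B-K562 cells. The 86.7% lower in G-K562 cells stood against 33.3% of all genes tested. In B-K562 cells 66.7% were higher and 13.3% lower, against 52.5% and 30.1% of genes whose mean reached 1000. The 5 genes of the catalytic F1 head were all lower in G-K562 cells, by -0.97 to -0.18 on the log2 scale. ATP5B, which encodes the catalytic beta subunit and had the highest level per kilobase of the subunits named here, was at 53393, 54448 and 52348 in V-K562 and 34363, 34675 and 34190 in G-K562 libraries. The values within each line lay close together and the lines far apart, with a log2 fold change of -0.63 (SE 0.06, adjusted p = 1.5e-06, limma-trend). In B-K562 cells its values of 56825, 56363 and 55242 lay above 52588, 53627 and 51306 without a call (adjusted p = 0.096), though it was called higher with quantile normalization (0.21, adjusted p = 3.4e-04, limma-trend). ATP5A1, the alpha subunit, was at 68.6% in G-K562 and 120% in B-K562 cells. ATP5C1, the central stalk subunit that turns inside the head, fell most, from 7429, 7263 and 6726 to 3421, 3989 and 3573 in G-K562 libraries.

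The 3 genes of the membrane c-ring encode the same mature protein and differed in response. ATP5G1 was at 2009, 1650 and 1449 in V-K562 and 2717, 2500 and 2475 in B-K562 libraries, and at 2040, 1675 and 1478 against 911, 1092 and 888 in the G-K562 table. ATP5G3 moved the same way, to 141% of V-K562 in B-K562 and 64.0% in G-K562 cells. ATP5G2 was lower in both lines, at 75.3% and 79.2%, and no difference of G-K562 and B-K562 cells was called (log2 difference 0.07, standard error 0.04, adjusted p = 0.12, limma-trend), though one was with quantile normalization (0.14, adjusted p = 0.0058) and equal totals (0.13, adjusted p = 0.015). Per kilobase of exon, ATP5G2 had the highest V-K562 level of the 3 at 8048, against 3820 for ATP5G3 and 2632 for ATP5G1.
ATP5H, of the peripheral stalk that holds the head still, fell to 82.0% of V-K562 in B-K562 cells and was at 97.3% in G-K562 cells, where libraries overlapped. G-K562 cells exceeded B-K562 cells by a log2 difference of 0.25 (SE 0.05, adjusted p = 5.0e-04, limma-trend). ATP5J, of the same stalk, rose to 151% in B-K562 and fell to 67.4% in G-K562 cells, and ATP5I, a small membrane subunit, was at 128% and 55.7%. ATP5S, which is not a subunit, rose to 174% of V-K562 in G-K562 cells. In B-K562 cells it was called at 120%, a call lost without B-K562 replicate 1 (adjusted p = 0.092), V-K562 replicate 2 (0.072) or V-K562 replicate 3 (0.066).

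Genes that serve the chain outside the symbol rule were examined from lists, and several subunit genes appear in the files under older symbols. NDUFAB1 of complex I, CYC1 (cytochrome c1) and CYCS (cytochrome c) were higher in B-K562 cells, with log2 fold changes of 0.68, 0.25 and 0.73, and were at -0.57, -0.65 and -0.40 in G-K562 cells, where CYCS was not called (adjusted p = 0.069, limma-trend). ATPIF1, the inhibitor of ATP hydrolysis by complex V, was at 0.36 and -0.61. The complex V genes USMG5 and C14orf2, named after their values were seen, were at 0.52 and 0.41 in B-K562 and at -0.63 and -0.03 in G-K562 cells, the last not called.
All 13 mitochondrially encoded subunit genes were lower in the G-K562 line, against 33.3% of all genes tested, by a median of -0.64 on the log2 scale. The largest falls were those of ND6 at -1.08 and ND3 at -1.02. In B-K562 cells 5 of the 13 (38.5%) were lower, a share near the 37.2% of all genes tested, with ND4 at -0.45 and COX3 at -0.44, and 1 was higher, ND6 at 0.18. These genes took 6.54% to 7.75% of the summed values of V-K562 libraries, 5.73% to 6.05% of those of B-K562 libraries and 4.56% to 4.72% of those of G-K562 libraries, so the 3 lines did not overlap.

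Assembly factors, which build the complexes without staying in them, were higher in B-K562 cells for 37 of 49 genes (75.5%) and lower for 5 (10.2%). Of all genes tested 38.6% were higher and 37.2% lower, and of genes whose mean reached 1000, 52.5% and 30.1%. The median log2 fold change of the assembly factors was 0.40. NDUFAF8 and NDUFAF4, for complex I, were at 1.59 and 1.26, and COA7, for complex IV, went from 953, 968 and 859 in V-K562 to 2589, 2652 and 2592 in B-K562 libraries. SDHAF4, which helps mature SDHA, was the 1 factor that fell at least 2-fold in B-K562 cells, at 191, 218 and 217 in V-K562 and 80, 77 and 59 in B-K562 libraries. In G-K562 cells 21 of the 49 (42.9%) were lower and 9 (18.4%) higher, against 33.3% and 33.5% of all genes tested, with a median of -0.14. NDUFAF4 was lower at -0.29, SDHAF4 was lower at -0.74, and TMEM126B was higher in both lines, at 1.14 in B-K562 and 0.84 in G-K562 cells.
Regulators of nuclear and mitochondrial respiratory genes were higher in B-K562 cells for 13 of 16 tested (81.25%) and lower for 2 (12.5%). The shares were 38.6% and 37.2% of all genes tested, and 52.5% and 30.1% of genes whose mean reached 1000. C10orf2, which encodes the mitochondrial helicase Twinkle, rose by 1.62 on the log2 scale, PPRC1, a coactivator of NRF1, by 1.30, and TFB2M, a mitochondrial transcription factor, by 1.26. NRF1 was at 0.72 and TFAM, which packages mitochondrial DNA, at 0.81. Of the 16, G-K562 cells had 4 higher (25.0%) and 5 lower (31.2%), shares not above the 33.5% and 33.3% of all genes tested. PPARGC1B, a coactivator of mitochondrial genes, was at 970, 1123 and 1060 in V-K562 and 548, 478 and 520 in G-K562 libraries, a log2 fold change of -1.03 (SE 0.08, adjusted p = 7.1e-07, limma-trend). NRF1 and TFAM were at -0.09 and -0.11, and neither was called. Mitochondrial ribosomal protein genes were higher in B-K562 cells for 72 of 80 tested (90.0%), with a median of 0.56. This stood against 38.6% of all genes and 52.5% of genes whose mean reached 1000. In G-K562 cells 34 of 81 (42.0%) were lower and 13 (16.05%) higher, with a median of -0.11. Of all genes tested there 33.3% were lower and 33.5% higher. Of short genes with a mean of 1000 or more, 45.7% were lower and 18.5% higher, near the shares of the ribosomal protein genes.

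Neighbours on the chromosome were read beside the subunit genes, since stretches of the genome moved together in G-K562 cells. For each subunit gene the median log2 fold change of all other tested genes within 5 Mb was taken, from at least 13 genes. In G-K562 against V-K562 cells the median over the 74 of these neighbour values was 0.02, and 69 of 74 subunit genes were below their neighbours, by a median of -0.47. In B-K562 cells 53 of 74 were above their neighbours, by a median of 0.20. Across the 74 genes the rank correlation of a gene's change with that of its neighbours was 0.37 in G-K562 and 0.20 in B-K562 cells, over genes that share libraries and in places share neighbours.
Subunit genes with the largest fall in G-K562 cells in complexes I, II, III and V lay among neighbours that were lower too, unlike the isoform genes COX7B2 and COX6B2, whose neighbour medians were 4.5e-05 and 0.01. Neighbour medians were -0.40 for SDHB, -0.39 for NDUFS5 and -0.45 for UQCRH, all on the short arm of chromosome 1, and -0.60 for ATP5C1 on chromosome 10. These 4 genes were below their neighbours by -0.72, -0.68, -0.46 and -0.36. COX6A1, ATP5G1 and ATP5I had neighbour medians of 0.09, -0.0038 and 0.06. For SDHA on chromosome 5 they were -0.26 in G-K562 and -0.35 in B-K562 cells. The number of copies of these stretches in each line was not measured here, and its part in the values was not tested.

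**Figure D5:**
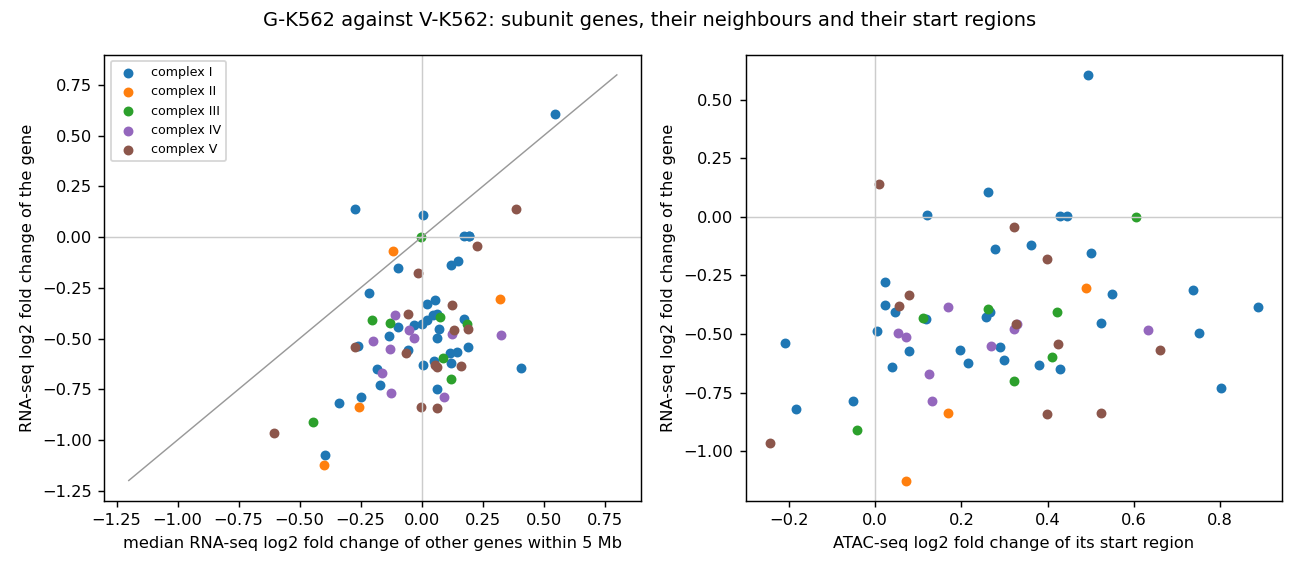
RNA-seq log2 fold change of subunit genes in G-K562 against V-K562 cells (y axes) set against the median log2 fold change of other genes within 5 Mb (left, with the line of equality) and against the ATAC-seq log2 fold change of the gene's start region (right), with 1 point per gene coloured by complex. On the left 69 of 74 genes lie below the line, and on the right most genes lie at a lower RNA value and a higher start signal.

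Chromatin at the starts of the genes did not follow the fall of the transcripts in G-K562 cells. Of the 86 genes, 68 had a region of open chromatin within 500 bp of a RefSeq start, 16 had no row in the table of starts, and NDUFA4L2 and COX7B2 had a start without such a region. The 66 tested regions were valued by the tags at the peak summit. In G-K562 against V-K562 cells 28 regions were higher and 0 lower (limma-trend, Benjamini-Hochberg over all regions), and their median log2 fold change was 0.29. The start regions of all genes passing the value rule gave 41.0% higher and 4.25% lower, with a median of 0.33, so the count of higher regions (42.4%) was near the background. In B-K562 cells 14 regions (21.2%) were higher and 0 lower, against 19.8% and 2.36% of all start regions. With tags left unscaled beyond the equal number per library, 55 and 34 regions were higher, and 0 lower in each, so the number of higher regions rests on the scaling. With any 1 library left out, 16 to 22 regions were higher in G-K562 and 4 to 10 in B-K562 cells, the lowest counts being those without G-K562 replicate 3 and without B-K562 replicate 1.

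SDHB had 248, 258 and 239 tags at its start summit in V-K562, 351, 386 and 355 in B-K562 and 325, 314 and 361 in G-K562 libraries before scaling. After scaling its log2 fold change was 0.40 in B-K562 (SE 0.08, adjusted p = 0.0095, limma-trend) and 0.07 in G-K562 cells (adjusted p = 0.45). ATP5G1 rose at its start in both lines, from 271, 236 and 221 tags to 353, 337 and 330 in B-K562 libraries and 457, 403 and 475 in those of G-K562, with log2 fold changes of 0.34 and 0.52. Its transcript rose in B-K562 and fell in G-K562 cells. COX4I1 was at 69, 63 and 66 tags in V-K562 and 139, 133 and 122 in G-K562 libraries, a log2 fold change of 0.63 (SE 0.11, adjusted p = 0.0040, limma-trend), while its transcript fell. ATP5C1 had the lowest start log2 fold change in G-K562 cells, at -0.24 after scaling, which was not called (adjusted p = 0.094, limma-trend). Its tags before scaling were 150, 176 and 147 in V-K562 and 176, 150 and 183 in G-K562 libraries. COX6B2, whose transcript fell in both lines, had start log2 fold changes of 0.23 and 0.38, neither called. For NDUFB2 and NDUFA9, the largest rises of complex I subunits in B-K562 cells, start log2 fold changes there were 0.19 and -0.20, and neither was called.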

How the data were processed

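Each assay had 9 libraries, 3 from each line. For RNA-seq the authors aligned to GRCh38 using STAR, discarded duplicates and reads mapping to several places, and assigned the rest to RefSeq genes using Subread. The deposited signal values are these counts divided by a size factor per library and rounded, in 1 table for each BASP1 line with V-K562. The tables also hold fold changes and p-values of the authors' own comparisons, which were not used. For ATAC-seq the authors sampled libraries to equal tags and used MACS2 on every library, and the deposited pileup signal is the number of tags at a peak's summit.

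Members and lists were chosen with earlier results of these data known. Genes reaching 10 in 3 or more libraries were tested on log2(value + 1) with limma-trend (limma 3.58.1, R 4.3.3), with Benjamini-Hochberg adjustment over all genes tested, so fold changes of low genes are understated. No count model was used, because the values are not raw counts. For G-K562 against B-K562, the B-K562 columns were scaled by 1.0170, the mean ratio of the V-K562 columns, and all 9 libraries were fitted. ATAC-seq peaks (47111 to 55570 per library) were merged into 85549 regions, scaled by a trimmed mean, raised to at least 17 tags and tested where at least 3 of 6 libraries had a peak. A library without a called peak in a region was set to 17 tags there. Upstream sequences and starts came from a RefSeq table of GRCh38.p14.

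Named members were those changed at least 2-fold, the 2 largest rises and falls of each complex in each comparison, and a fixed set of core subunits and isoform pairs, with exceptions stated in the text. P-values measure the spread between 3 cultures of 1 pool each. The fit was checked on simulated data with 1 dispersion for all genes and no lean of libraries to short transcripts. Of simulated 1.25-fold changes, 50.0% were recovered for B-K562 against V-K562, 35.4% for G-K562 against V-K562 and 44.0% for G-K562 against B-K562. For 2-fold changes these shares were 92.0%, 93.6% and 87.8%, so small changes were often missed. The raw depth of each library cannot be read from the table totals, which the size factors set. Other pseudocounts, filters, scalings and fits, the replicate block and leaving out each library were tried. Python 3.11.15 was used for the remaining steps. Some genes of the lists are not reported here.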

Additional observations from a re-analysis of the deposited data

Results flagged for a closer look

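Of the 86 respiratory chain genes, G-K562 cells had 71 at lower and 7 at higher values than B-K562 cells. The shares over all genes tested were 40.5% lower and 38.1% higher, and those over short genes with a mean of 1000 or more were 61.6% and 25.4%. These genes are marked because the 2 BASP1 lines differed by a direct test (limma-trend on 9 libraries). A difference between the pools cannot be told apart from one between the 2 BASP1 proteins. The genes with at least a 2-fold direct difference had these log2 differences of G-K562 and B-K562 cells. Complex I held NDUFA4L2 at 3.72, NDUFA9 at -1.19, NDUFB2 at -1.30, NDUFB9 at -1.04 and NDUFS5 at -1.53. Complex II held SDHB at -1.46, and complex III held UQCR10 at -1.04 and UQCRQ at -1.10. Complex IV held COX6A1 at -1.03 and COX7B2 at -5.17, the latter fitted on G-K562 values of 1 to 4. Complex V held ATP5C1 at -1.11, ATP5G1 at -1.44, ATP5G3 at -1.15, ATP5I at -1.21 and ATP5J at -1.16. Groups of 3 libraries were too small for a test of single libraries that stand apart.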

How the results depend on the processing

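Under the alternatives to the RNA-seq fits, the counts of members lower in G-K562 cells stayed between 62 and 69 against V-K562 and between 64 and 73 against B-K562 cells. Quantile normalization moved the median log2 fold change of the members to 0.093 in B-K562 against V-K562 cells and to -0.48 in G-K562 against B-K562 cells. It also turned COX7B2 in B-K562 cells to 0.34 and the median of the 10 complex III members there to -0.046. The median of the 13 complex IV members in B-K562 cells, near 0, turned negative with quantile normalization (-0.095), a trimmed mean (-0.0082) and equal totals (-0.030), and lay between -0.033 and 0.059 with 1 library left out. Leaving out V-K562 replicate 1 and G-K562 replicate 2 together gave 7 members called higher in the G-K562 line. The cause of these moves was not tested. Start regions higher in B-K562 cells numbered 34 without scaling beyond equal tags, 24 with a peak required in all 6 libraries, and 4 to 10 with 1 library left out, where fewer samples were fitted. Those higher in G-K562 cells numbered 55 without scaling and 16 to 22 with 1 library left out. With the replicate block, 48 members were higher and 16 lower in B-K562 and 5 higher and 65 lower in G-K562 against V-K562 cells, so the counts of calls moved little. The replicate numbers were not shown to pair the cultures, since same-numbered V-K562 and B-K562 libraries had correlations of deviations of 0.07, 0.04 and 0.0011 and the G-K562 ones -0.10, -0.06 and 0.15, and not every library correlated best with its own number. Of 47 named members, 20 crossed the threshold or changed sign under some alternative in B-K562 against V-K562 cells, 2 in G-K562 against V-K562 cells (SDHD and NDUFV2-AS1) and 6 in G-K562 against B-K562 cells (ATP5G2, COX6B2, NDUFB5, NDUFV2-AS1, SDHA and UQCRB).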
